A study of Mus musculus with 2 samples.

Results

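Peaks of DNase I hypersensitivity in mouse thymus were called far when their midpoint lay over 100 kb from every protein-coding transcription start of GENCODE M21 and outside the bodies of protein-coding genes, on the 19 autosomes of mm10 (GRCm38). Far peaks numbered 11145 of 129010 autosomal peaks in replicate 1 (8.64%) and 3946 of 67901 in replicate 2 (5.81%), a mean of 7.23% ± 2.00 (SD, n = 2). DNase-seq maps the positions in chromatin that the nuclease DNase I can reach, and a peak is a short region cut more often than its surroundings. The 2 libraries came from the thymus of separately numbered female B6CASTF1/J mice aged 10 days, which are F1 hybrids of C57BL/6J and CAST/EiJ and therefore carry a set of chromosomes of each strain. They formed 1 group of biological replicates with no control, so that values are given for each library and no test was made, since the smallest two-sided p that 2 libraries allow is 0.5. The tissue was taken whole, so that fewer cells with an open site and less cutting in each cell cannot be told apart.

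Sequence far from any coding gene lies mostly in gene deserts, the long intervals between neighbouring coding genes. Enhancers in deserts can act on a promoter at a great distance through looping of the chromatin fibre, and genes that direct development often have such enhancers. In thymocytes, the developing T cells that fill the thymus, distal enhancers of this kind are known for Bcl11b, a transcription factor of T-lineage commitment, for Gata3 and for Myc. The nearest gene is used below as a name for a place, and no peak was linked to a gene it may act on.

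The sequences of 8 far regions found in both libraries are shown as examples of high far regions. They were taken among regions of up to 300 bp in which every 32-base word occurs once in the genome, so that longer regions were passed over, some of them higher. The first 4 are the highest such regions in the 4 largest clusters described below outside the T-cell receptor alpha locus, and the others are the 4 highest such regions over all far sequence. In the largest cluster of all, in that locus, 0 of 30 regions had every 32-base word in a single copy, so none is shown. Each is the plus strand of the RefSeq GRCm38.p6 assembly, which is C57BL/6J sequence, and is named by the coding genes on either side. Capitals mark bases that lay in a deposited footprint of both libraries, a footprint being a short stretch inside open chromatin that was cut less than the bases beside it.
Vrk1 to 3110018I06Rik, chr12:107183401-107183600: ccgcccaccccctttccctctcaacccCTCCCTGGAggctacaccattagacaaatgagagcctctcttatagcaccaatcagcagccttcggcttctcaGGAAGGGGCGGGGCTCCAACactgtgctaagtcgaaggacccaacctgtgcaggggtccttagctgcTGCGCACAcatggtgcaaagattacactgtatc
Ets2 to Psmg1, chr16:95869641-95869840: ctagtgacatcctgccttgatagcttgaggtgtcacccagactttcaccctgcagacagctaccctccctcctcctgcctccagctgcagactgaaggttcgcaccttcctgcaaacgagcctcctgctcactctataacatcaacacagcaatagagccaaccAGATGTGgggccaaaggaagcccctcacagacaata
Bcl6 to Lpp, chr16:24154921-24155120: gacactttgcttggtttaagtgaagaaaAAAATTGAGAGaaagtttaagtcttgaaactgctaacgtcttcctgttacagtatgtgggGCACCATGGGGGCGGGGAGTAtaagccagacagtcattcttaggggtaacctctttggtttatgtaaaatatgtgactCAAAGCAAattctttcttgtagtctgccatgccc
Dyrk2 to Cand1, chr10:119011081-119011300: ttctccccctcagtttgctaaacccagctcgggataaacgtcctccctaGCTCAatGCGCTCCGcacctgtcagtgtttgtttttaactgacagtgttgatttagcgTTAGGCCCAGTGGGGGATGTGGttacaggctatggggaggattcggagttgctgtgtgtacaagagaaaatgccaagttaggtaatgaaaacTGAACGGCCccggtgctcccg
Kif2a to Smim15, chr13:107890101-107890400: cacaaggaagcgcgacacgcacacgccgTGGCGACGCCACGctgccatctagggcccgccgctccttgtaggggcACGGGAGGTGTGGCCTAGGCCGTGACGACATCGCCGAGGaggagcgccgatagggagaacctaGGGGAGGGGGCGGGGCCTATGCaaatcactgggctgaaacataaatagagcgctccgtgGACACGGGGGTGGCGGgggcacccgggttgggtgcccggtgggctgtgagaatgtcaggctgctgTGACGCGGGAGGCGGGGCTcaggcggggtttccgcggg
Zfat to Khdrbs3, chr15:68363221-68363520: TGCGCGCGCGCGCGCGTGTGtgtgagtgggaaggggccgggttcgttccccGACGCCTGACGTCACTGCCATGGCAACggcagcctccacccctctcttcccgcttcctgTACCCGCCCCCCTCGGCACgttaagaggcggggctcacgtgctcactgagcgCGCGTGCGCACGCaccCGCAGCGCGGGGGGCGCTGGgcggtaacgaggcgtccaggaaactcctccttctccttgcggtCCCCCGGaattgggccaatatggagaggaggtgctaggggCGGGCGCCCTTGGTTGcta
Slc7a11 to Noct, chr3:50675881-50676080: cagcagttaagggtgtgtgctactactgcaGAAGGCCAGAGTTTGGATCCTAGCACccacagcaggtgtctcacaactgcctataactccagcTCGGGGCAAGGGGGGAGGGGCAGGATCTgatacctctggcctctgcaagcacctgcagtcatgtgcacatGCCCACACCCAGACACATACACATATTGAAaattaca
Tgfbr2 to Rbms3, chr9:116384321-116384520: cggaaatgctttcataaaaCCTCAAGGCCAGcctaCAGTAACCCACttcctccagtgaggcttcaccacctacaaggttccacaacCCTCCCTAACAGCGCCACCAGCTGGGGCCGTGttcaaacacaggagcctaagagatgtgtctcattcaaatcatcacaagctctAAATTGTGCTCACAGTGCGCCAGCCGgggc

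The region between Kif2a and Smim15 was 68.7% GC, held 109 bases under footprints of both libraries and had heights of 13.04 in replicate 1 and 16.9 in replicate 2. That between Zfat and Khdrbs3 was 69.3% GC with 122 such bases and heights of 12.71 and 13.04. The 6 other sequences were 41.5% to 56.5% GC with 7 to 84 such bases. A KLF and SP consensus (GGGCGG, on either strand) lay wholly under footprints of both libraries in 4 of the 8 regions, those between Vrk1 and 3110018I06Rik, Bcl6 and Lpp, Kif2a and Smim15, and Zfat and Khdrbs3. An E-box (CAGCTG) did so in the region between Tgfbr2 and Rbms3, and 5 of the 7 bases of a RUNX consensus (TGTGGTT) in the region between Dyrk2 and Cand1.

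The autosomal peaks besides the far ones numbered 117865 and 63955. A peak lay within 500 bp of a transcription start of 8 of 8 thymocyte marker genes in both libraries (Cd3e, Cd4, Cd8a, Rag1, Bcl11b, Tcf7, Lck and Ptcra). Of 3 genes taken as markers of absent cell types (Alb, Myod1 and Neurod1), 0 had such a peak in either library. Markers of other cells of the organ had such peaks in both libraries as well: Aire and Epcam of 4 genes of thymic epithelium, Itgam and Lyz2 of 3 myeloid genes, Pdgfra and Col1a1 of 3 fibroblast genes, Pax5 of 3 B-lineage genes, Pecam1 of 3 endothelial genes and Gata1 of 3 erythroid genes. Foxn1 and Psmb11 of the epithelium had none. The share of all coding genes with such a peak was not counted, so these marker counts have no background to be set against. Which cell type each far peak came from was not tested.

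Far sequence made up 29.9% of the autosomes (716.5 of 2396 Mb) and held 15.6 peaks per Mb in replicate 1 and 5.51 in replicate 2, against 70.2 and 38.1 in the rest of the autosomes. Intergenic sequence 10 to 100 kb from a coding start held 48.4 and 22.8 peaks per Mb. The density of far peaks was thus lower than that of nearer intergenic peaks in both libraries, and replicate 1 had the higher density in every class. Far peaks covered 2.12 and 0.655 Mb in all, and the median far peak was 180 and 168 bp wide, against 200 bp for other peaks in either library.

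Far peaks were also lower. Heights are the authors' values per library on a scale that the sources used here do not define, so they were divided by the median height of all autosomal peaks of the library, 0.631 in replicate 1 and 0.834 in replicate 2. The median far peak had 0.532 times that median in replicate 1 and 0.590 times in replicate 2, a mean of 0.561 ± 0.0411 (SD, n = 2), against 1.06 and 1.04 times for the other peaks and 0.927 and 0.840 times for intergenic peaks 10 to 100 kb from a start. The lowest 10% of each library's peaks by height held 32.4% and 32.3% of the far peaks, against 7.89% and 8.62% of the others. The highest 10% held 228 (2.05%) and 55 (1.39%) of the far peaks, against 10.8% and 10.5% of the others. Low peaks were thus the largest class of far peaks, and the gap between the median far and other peak was larger than the spread between the libraries.

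**Figure D1:**
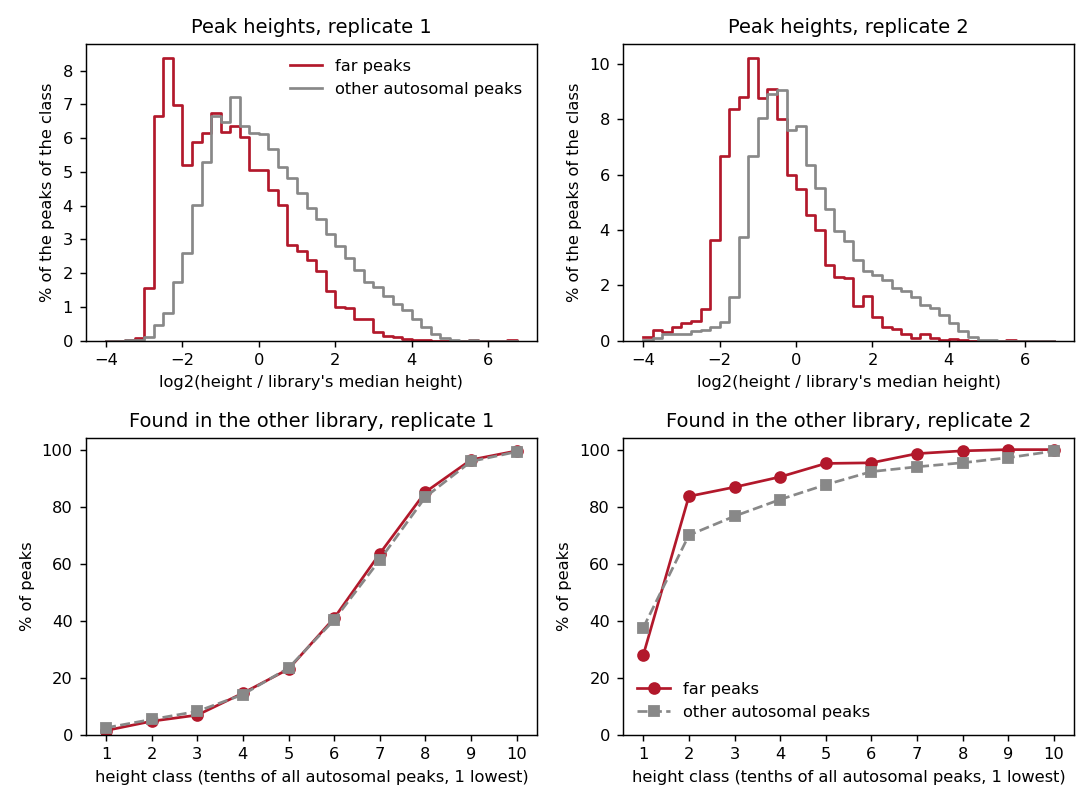
Upper panels show the distribution of peak height (log2 of height over the library's median, in bins of 0.25) of far peaks (red) and other autosomal peaks (grey) in each library, as percent of the peaks of the class. Lower panels show the percent of peaks found in the other library by height class, where the red and grey lines lie close together in replicate 1 and the red line lies above the grey from class 2 to class 10 in replicate 2.

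Of the far peaks, 2789 (25.02%) of replicate 1 overlapped a peak of replicate 2 by at least 1 bp, and 2819 (71.4%) of replicate 2 overlapped a peak of replicate 1. Among all autosomal peaks the shares were 43.4% and 83.4%, and among other peaks alone 45.1% and 84.1%. Far peaks were therefore found less often in the other library, in both directions. When the other peaks were weighted to the heights of the far peaks over 10 height classes, their shares came to 25.2% and 69.4%, and those of intergenic peaks 10 to 100 kb from a start to 24.1% and 72.7%. With heights weighted in this way, the shares differed from those of the far peaks by at most about 2 percentage points in either library. Within single height classes of replicate 2 the differences were larger and ran in both directions. In its second lowest class 83.6% of far peaks were found, against 70.0% of other peaks. In the highest class the shares were 99.6% and 100% for far peaks, against 99.3% and 99.5% for other peaks, and in the lowest class 1.497% and 27.9%, against 2.45% and 37.5%. With the highest 67901 peaks of each library, 67.1% and 59.3% of far peaks were found in the other library, against 74.1% and 75.9% of other peaks.

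Joined over the libraries, the far peaks formed 12052 regions, of which 2723 (22.6%) were found in both, 8211 in replicate 1 alone and 1118 in replicate 2 alone. Of the other regions, 50948 of 123798 (41.2%) were found in both. In the far regions found in both, heights had a median of 1.83 times the library's median in replicate 1 and 0.771 times in replicate 2. The other regions found in both had 2.74 and 1.22 times. The library's median is taken over unequal numbers of peaks, so relative heights are not on the same scale in the 2 libraries. Across the far regions found in both, the log2 heights of the libraries correlated with Pearson's r = 0.842 and Spearman's rho = 0.844. Across the other regions these were 0.904 and 0.900. They are given as a description, since regions are not replicates. Far peaks of one library that had no peak in the other fell on a stretch with a deposited false discovery rate (FDR) of the cut rate below 0.05 in that other library in 2.91% of cases for replicate 1 and 16.1% for replicate 2, against 6.02% and 54.1% for other peaks.

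A footprint overlapped 6699 far peaks of replicate 1 (60.1%) and 2985 of replicate 2 (75.6%), where 75% and 84.1% of all autosomal peaks had one. Other peaks had a footprint in 76.4% and 84.6% of cases, or 57.7% and 72.1% when weighted to the heights of the far peaks, and intergenic peaks 10 to 100 kb from a start in 60.9% and 75.5% when weighted likewise. The share of far peaks with a footprint therefore lay below that of all other peaks, 2 to 4 percentage points above it at equal height, and within 1 percentage point of that of nearer intergenic peaks at equal height. The stricter peak file of each sample overlapped 52.2% and 46.4% of the far peaks, against 70.3% and 66.8% of the others. Among far peaks, 4.19% and 7.10% had fewer than 50% of their 32-base words in a single copy in the genome, against 1.54% and 1.84% of other peaks, and the sources used here do not say how the authors placed reads in such sequence.

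Density and recurrence declined with distance in both libraries over these bins, as did height apart from the step to 200 to 300 kb in replicate 2. From 100 to 200 kb the density was 25.5 peaks per Mb in replicate 1 and 9.83 in replicate 2, and it was 17.4 and 5.82 from 200 to 300 kb, 12.99 and 4.29 from 300 to 500 kb, 7.88 and 2.51 from 500 kb to 1 Mb, and 5.21 and 1.42 beyond 1 Mb. The median height over the library's median was 0.651 and 0.653 from 100 to 200 kb, and 0.193 and 0.299 beyond 1 Mb, where 369 and 101 peaks lay. The share found in the other library was 30.0% and 78.5% from 100 to 200 kb and 8.67% and 31.7% beyond 1 Mb. The median far peak lay 209 kb from the nearest coding start in replicate 1 and 195 kb in replicate 2. Beside the limit itself, 778 and 364 peaks lay at 100 to 110 kb with 33.3% and 69.8% found in the other library, and 981 and 440 intergenic peaks at 90 to 100 kb with 34.7% and 78.9%. The density was 33.1 and 14.8 peaks per Mb at 90 to 100 kb and 28.7 and 13.4 at 100 to 110 kb. The limit of 100 kb therefore fell within a decline of density that began nearer to genes. In replicate 2 the share found and the height did not decline evenly at the limit. The share was 69.8% at 100 to 110 kb but 78.5% over 100 to 200 kb. The median height was 0.663, 0.580 and 0.653 times the library's median at 90 to 100, 100 to 110 and 100 to 200 kb.

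**Figure D2:**
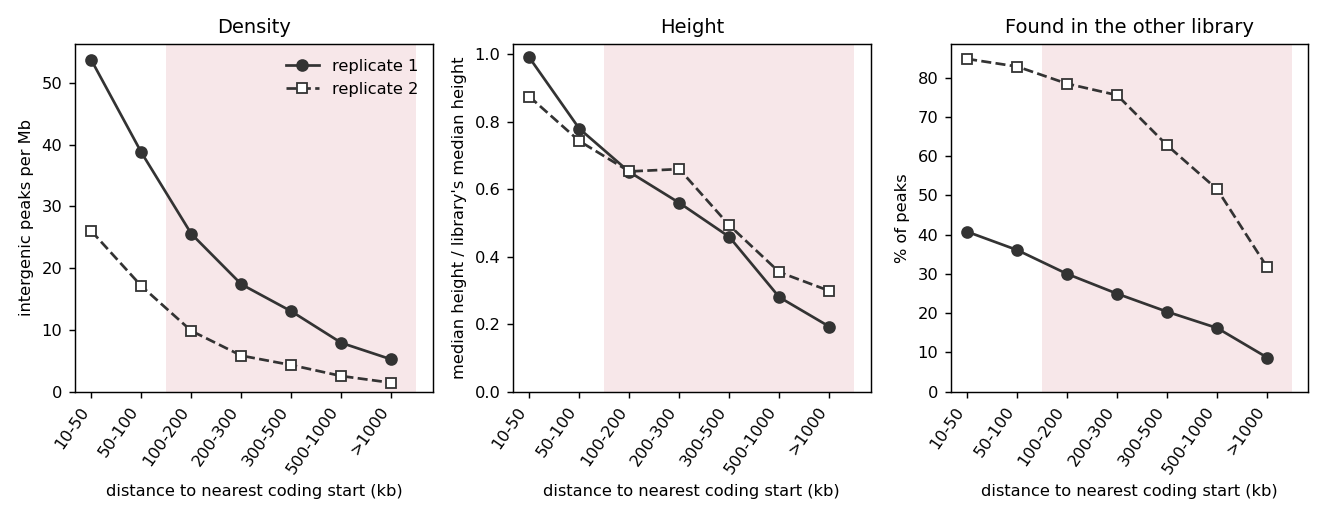
Intergenic peaks by distance to the nearest coding transcription start (kb, in 7 bins), shown for replicate 1 (filled circles, full line) and replicate 2 (open squares, broken line): peaks per Mb, median height over the library's median, and percent found in the other library. The shaded bins hold the far peaks, and each measure is lowest in the bin beyond 1 Mb.

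Far regions found in both libraries were ranked by the lower of their relative heights in the 2 libraries. The highest of all lay at chr17:39846781-39846920, 103.7 kb from Esp38, a gene of the exocrine gland-secreted peptides, with heights of 57.2 in replicate 1 and 39.1 in replicate 2. It fell in the annotated ribosomal RNA gene CT010467.1 and 0% of its 32-base words were in a single copy. Of the next 3, those at chr3:5860361-5860530 (29.9 and 15.6) and chr8:20122141-20122300 (13.5 and 14.3), had 0% and 21.7% of words in a single copy. So 3 of the 4 highest far regions lay in sequence with further copies, and the part of copy number in their height was not tested. The remaining region of these 4 is the GC-rich one between Kif2a and Smim15 printed above.

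That region lay within 1 kb of a start of Zswim6, and the eighth highest, at chr17:47139781-47140100 (7.66 in replicate 1 and 11.1 in replicate 2), within 1 kb of a start of Trerf1. GENCODE M21 types both genes as processed transcripts, and RefSeq carries coding models of both on the same assembly, so their promoters counted as far by the annotation used. Of the far regions found in both libraries, 22 (0.808%) lay within 1 kb of the start of a RefSeq mRNA model and 167 (6.13%) within 100 kb. Besides Zswim6 and Trerf1, the 22 were at starts of RefSeq models of Spata13 and Arhgap24, which GENCODE types as protein-coding with no start within 100 kb of these regions, and of predicted genes such as Gm5165 and Gm20939. Nearly all far regions were therefore also far from RefSeq mRNA starts, while the bodies of RefSeq genes were not checked. Of the clusters described below, one of 7 regions and one of 4 between Ubr2 and Mrps10 overlapped Trerf1. A cluster of 4 regions between Kif2a and Smim15 overlapped Zswim6. These regions stayed in the counts by stretch and by nearest gene, such as Ubr2 and Smim15.

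Other high far regions lay at long non-coding RNAs. The region between Zfat and Khdrbs3 printed above lay within 1 kb of a start of Gm20732, and the region at chr1:7398081-7398320 (7.76 and 10.7), 238 kb from Pcmtd1, at Gm26901. In all, 431 far peaks of replicate 1 (3.87%) and 234 of replicate 2 (5.93%) lay within 1 kb of the start of a long non-coding RNA. This group here includes processed transcripts, so peaks at starts of Zswim6 and Trerf1 count in it. So do those at Gm42418, a start of which lies within 1 kb of the multicopy region in the ribosomal RNA gene above. The 431 and 234 peaks had a median height of 0.853 and 0.826 times the library's median, against 0.523 and 0.576 for the far peaks elsewhere. Of them, 44.1% and 83.8% were found in the other library, against 24.3% and 70.7% elsewhere. A further view is that 75.4% and 69.9% of the far peaks lay neither within 1 kb of a start nor inside the body of any annotated gene.

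The farthest region found in both libraries, at chr1:102628161-102628360, lay 2140 kb from Cdh20, a cadherin gene, and was high for its place, with 12.9 and 5.90 times the library's median. Of its 32-base words, 60.4% were in a single copy. The next, 2026 kb from Tenm3 at chr8:50869581-50869704, inside the long non-coding RNA C130073E24Rik, had only 0.202 and 0.250 times the median. The next 3 lay near Pcdh20 (1824 kb) and Cntnap5b (1650 kb in both cases) with at most 0.835 times the median. Of their 32-base words, 23.8% near Pcdh20 and 3.70% and 75.5% near Cntnap5b were in a single copy. In total 32 far regions found in both libraries lay over 1 Mb from any coding start.

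The segments of the antigen receptor genes are not typed as protein-coding genes in GENCODE, so peaks among them entered the count. The T-cell receptor alpha and delta locus on chromosome 14, which thymocytes rearrange, held 220 far peaks in replicate 1 and 126 in replicate 2, and 100 regions found in both. The immunoglobulin heavy chain locus on chromosome 12, which B cells rearrange, held 208 and 83 far peaks and 73 such regions. The T-cell receptor beta and gamma loci added 4 and 2 regions found in both, the immunoglobulin kappa locus 2 and the lambda locus 0. Together these loci held 4.15% and 5.58% of the far peaks. In the alpha and delta locus 38.6% and 38.9% of far peaks, and in the heavy chain locus 26.4% and 36.1%, had fewer than 50% of their words in a single copy.

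The regions found in both libraries were unevenly spread over far sequence. The 1631 unbroken stretches of far sequence had a median of 0.194 Mb, and 655 of them (40.2%) held at least 1 such region. Of the 442 stretches with 0.5 Mb or more, 226 (51.1%) held none. The 17 stretches with 20 or more held 597 of the 2723 regions (21.9%) in 15.1 Mb. A few stretches were thus dense, and 51.1% of the long ones held no region found in both libraries, though far peaks of a single library could lie there. The long stretches were not more often without such a region than stretches of all lengths, of which 40.2% held at least 1.

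Outside the antigen receptor loci the most regions lay in the 1.26 Mb between Vrk1, a kinase gene, and the predicted gene 3110018I06Rik on chromosome 12, with 55 regions found in both libraries among 169 far peaks of replicate 1 and 67 of replicate 2. On the other side of 3110018I06Rik lies Bcl11b, and a distal enhancer active in developing T cells is known in this desert. The stretch between Foxo1, a transcription factor of lymphocyte homing and survival, and Cog6 held 36 in 0.526 Mb. That between Gm11361 and Sox4, an SRY-related factor expressed in developing lymphocytes, held 35 in 0.496 Mb. Next came the stretches Sall3 to Galr1 with 34, Satb1 to Kcnh8 with 33, Uaca to Tle3 with 31, Nr5a2 to Ptprc with 27, Sdk2 to Rpl38 with 25, Myc to Gsdmc with 25 and Id2 to Rnf144a with 22. Satb1 organises chromatin in thymocytes, Tle3 is a Groucho corepressor, Ptprc encodes the phosphatase CD45 of all white blood cells, and Id2 inhibits E-box binding factors.

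**Figure D3:**
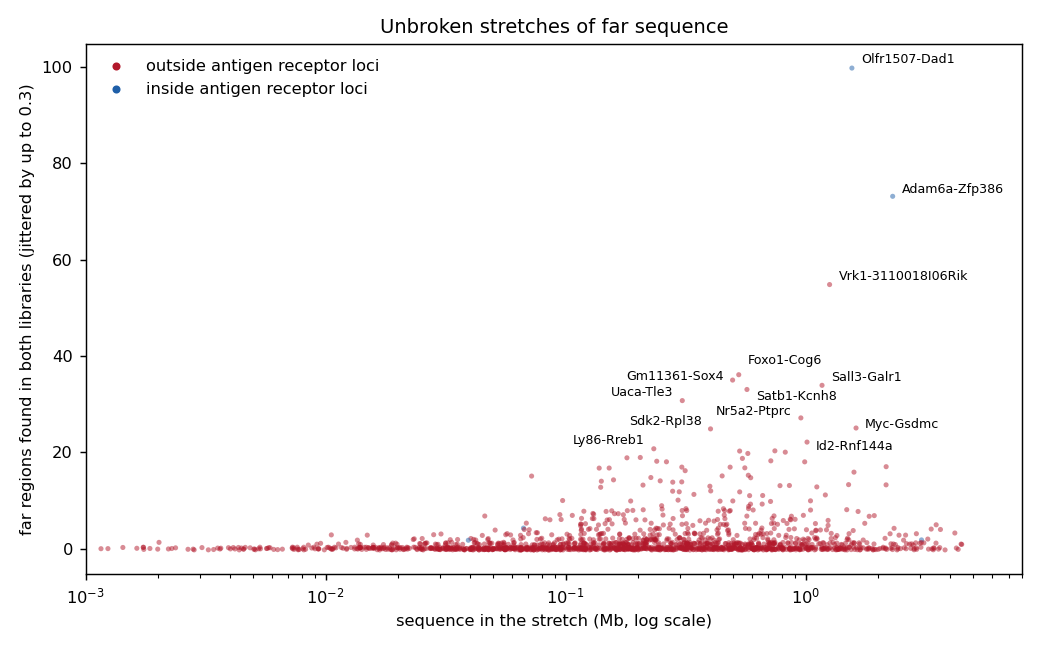
Each point is one of 1631 unbroken stretches of far sequence, placed by its length (Mb, log scale) and by the number of far regions found in both libraries (jittered by up to 0.3), in blue where regions lie inside antigen receptor loci and in red elsewhere. The 13 fullest are named by the coding genes on either side, and the points along the bottom are stretches that hold none or few.

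The longest stretch without a region found in both libraries, between Celf4 and Pik3c3 on chromosome 18, spanned 4.32 Mb and held 14 far peaks in replicate 1 and 3 in replicate 2. The next of the empty stretches, between Olfm4 and Pcdh17, a protocadherin gene, on chromosome 14, spanned 4.24 Mb with 15 and 5 far peaks. Between Slc39a10 and Tmeff2 on chromosome 1, 3.81 Mb held 18 and 4 far peaks, and between the cadherin genes Cdh6 and Cdh9 on chromosome 15, 3.36 Mb held 9 and 5. By chromosome, regions found in both ranged from 1.77 per Mb of far sequence on chromosome 4 and 1.94 on chromosome 5 to 6.17 on chromosome 12 and 6.02 on chromosome 13.

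By nearest gene, 2597 of 20807 autosomal coding genes had far sequence nearest to them, and 825 of these (31.8%) had at least 1 far region found in both libraries. The 20 genes with the most held 484 regions (17.8%). They were led by the neighbours of the antigen receptor loci, Dad1 with 70, Zfp386 with 47, Olfr1507 with 30 and Adam6a with 26, with 3110018I06Rik at 42. Sall3 followed with 25, then Kcnh8, Uaca, Sdk2, Foxo1 and Sox4 with 19 each, Gm11361 and Vrk1 with 18, Ptprc, Cog6 and Zmiz1 with 17, Ets1 and Trib2 with 16, and Smim15 and Satb1 with 15. Among genes with at least 0.05 Mb of far sequence, only 3 of these 20 (Uaca, Sdk2 and Dad1) stayed among the first 20 per Mb, which were led by Tomm20 with 158, Ubr2 with 127, Uaca with 124 and Lef1 with 122.

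Genes of the T lineage were compared with the 31.8% of all genes, by lists that were chosen with earlier results of these data known. Among regulators of the T lineage, 31 of 61 listed genes had far sequence, and 22 of these (71.0%) had a far region found in both libraries, with a median of 5 regions a gene against 0 over all genes. They held 187 regions, or 18.9 per Mb of far sequence, against 3.80 per Mb over all genes. After Foxo1, Sox4, Ets1 and Satb1 came Gata3, which specifies T and helper T cells, and Myc, with 15 each. Id2 had 14, Lef1, a factor of the Wnt pathway in thymocytes, and Bcl11b 11 each, Bcl6 10, Runx1 8, Tox 6 and Sox5, Ets2, Hes1 and Tcf4 5 each. Mycn and Foxp1 had 2 each, and Klf13, Zeb1, Ikzf2 and Meis1 had 1 each. The 15 regions nearest to Gata3 reached from 124 to 1119 kb from its starts, and the 16 nearest to Ets1 from 119 to 787 kb.

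Of T-cell surface, cytokine receptor and signalling genes, 18 of 55 had far sequence and 16 of these (88.9%) had a region found in both libraries, 90 regions or 20.1 per Mb. Ptprc had 17, Trib2, a pseudokinase gene, 16, Dusp4, a phosphatase of MAP kinases, 9, and the chemokine receptor gene Cxcr4 8. Among transcription factors of other tissues, 11 of 37 with far sequence (29.7%) had such a region, which is near the share over all genes, with 20 regions or 1.25 per Mb. Emx2 had 4 and Irx5 3 of these. Among adhesion and neuronal genes beside gene deserts, 9 of 52 (17.3%) had one, with 14 regions in 62.6 Mb or 0.224 per Mb, of which Gpc5 had 4. The share and the density thus both ran from higher in the T-cell lists to lower in the neuronal list, with all genes between. The lists differ in the median far sequence a gene has, which was 0.193 Mb for T-lineage regulators, 0.194 Mb for T-cell surface and signalling genes, 0.312 Mb for factors of other tissues and 1.07 Mb for adhesion and neuronal genes. Over all genes with far sequence this median was 0.125 Mb, so the shares of genes with a region were not compared at equal length. The densities of the lists were not compared at equal distance from a start. Far peaks found in the other library numbered 7.66 and 7.71 per Mb at 100 to 200 kb and 0.451 per Mb in each library beyond 1 Mb. The adhesion and neuronal list was moreover chosen as genes beside gene deserts.

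Far regions found in both libraries lay at a median of 27.4 kb from the next on the chromosome. With neighbours at most 20 kb apart, 862 of them (31.7%) formed 140 clusters of at least 4 regions, of which 13 had 10 or more and 15 lay in antigen receptor loci. Regions in clusters had a median height of 2.46 times the library's median in replicate 1 and 1.08 times in replicate 2, against 1.61 and 0.660 for those outside. Clustered regions were thus higher in both libraries.

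The largest cluster, at chr14:53538001-53710520 in the T-cell receptor alpha locus, had 30 regions over 173 kb, with heights from 0.587 to 4.80 times the median in replicate 1 and 0.361 to 3.48 times in replicate 2. The second, at chr12:107118421-107210100 between Vrk1 and 3110018I06Rik, had 19 regions over 91.7 kb and overlapped the long non-coding RNAs Gm16085, Gm16084 and Gm2800. Its heights were greater, with medians of 4.14 and 2.15 times the library's median, and its highest region, at a start of Gm16084, reached 8.86 and 10.96 times. A further cluster of 11 regions lay in the neighbouring stretch between 3110018I06Rik and Bcl11b, at chr12:107729341-107784245 and 219 kb from the nearest start of Bcl11b. At chr16:95820080-95886440 between Ets2 and Psmg1, 15 regions spanned 66.4 kb, with a highest region of 10.3 times the median in both libraries. This cluster held 22 far peaks in replicate 1 and 38 in replicate 2, and it was the only one of the 13 clusters with 10 or more regions that held more far peaks in replicate 2 than in replicate 1.

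A cluster of 15 regions lay between Bcl6 and Lpp at chr16:24151381-24238620. Bcl6 is a transcriptional repressor that acts in follicular helper T cells and germinal centre B cells. One of 14 lay between Dyrk2 and Cand1 at chr10:119001961-119079600, and 13 regions lay between Irf2bp2 and Tomm20 at chr8:126757961-126845540. The clusters between Sdk2 and Rpl38 (12 regions), Uaca and Tle3 (11), Tle3 and Rplp1 (11), Tnfaip3, an inhibitor of NF-kappa-B signalling, and Olig3 (10), and Ly86 and Rreb1 (10) completed those with 10 or more, besides a second one of 13 in the T-cell receptor alpha locus. Tle3 had a cluster on either side, 287 kb from its nearest start towards Uaca and 256.3 kb from it towards Rplp1.

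**Figure D4:**
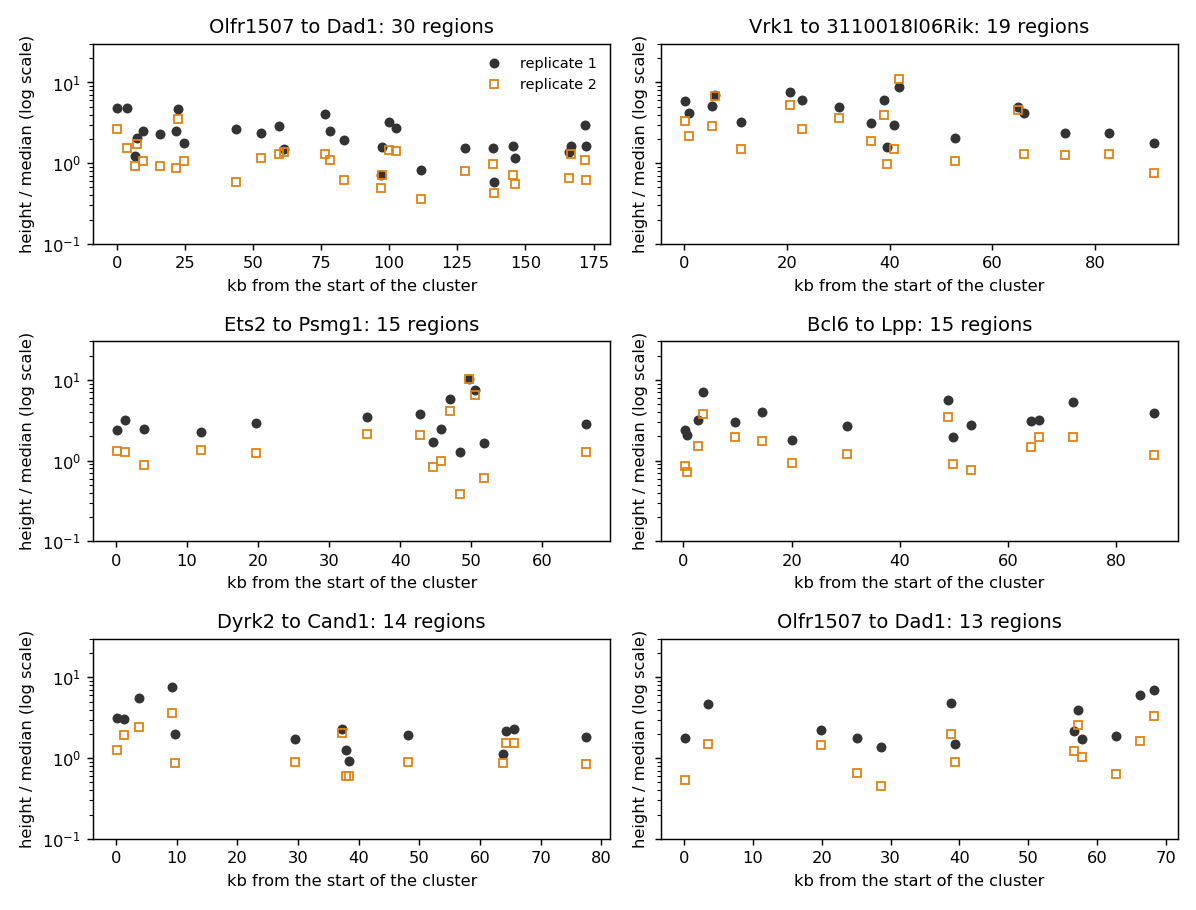
The 6 largest clusters of far regions found in both libraries, with each region's distance from the start of its cluster (kb) and its height over the library's median (log scale) in replicate 1 (filled circles) and replicate 2 (open squares). Heights are uneven within a cluster, such as between Ets2 and Psmg1, where the highest region reaches 10.3 times the median in either library.

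In 200-bp windows around the midpoint, far peaks had a GC content of 47.4% in replicate 1 and 51.7% in replicate 2, against 51.9% and 56.8% for other peaks and 42.3% and 43.1% for windows of far sequence 2 kb to either side. They held 2.53 and 3.59 CpG dinucleotides a window, against 5.48 and 8.18 for other peaks, of which promoter peaks had 11.6 and 13.9. Among peaks found in both libraries the GC content was 50.8% and 51.5% for far peaks, against 51.9% and 52.7% for intergenic peaks 10 to 100 kb from a start and 56.1% and 57.03% for other peaks. The CpG dinucleotides a window were 3.70 and 3.80 for far peaks, against 4.53 and 4.65 for these intergenic peaks and 8.22 and 8.50 for other peaks. Far peaks were thus richer in GC and CpG than the sequence beside them, poorer than other peaks, and close in GC to nearer intergenic peaks.

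Consensus sequences of transcription factors were searched on both strands, and a match describes the letters and not binding. The windows 2 kb to either side, 22126 in replicate 1 and 7793 in replicate 2, flank all far peaks of a library. They thus include windows beside far peaks that were not found in the other library. Among far peaks found in both libraries, 15.9% of windows in replicate 1 and 15.2% in replicate 2 held an ETS consensus (AGGAAGT), against 12.8% and 13.1% of intergenic peaks 10 to 100 kb from a start found in both, 10.8% and 10.6% of all other peaks found in both and 5.10% and 4.70% of windows 2 kb to either side. A RUNX consensus (TGTGGTT) was held by 11.01% and 11.2%, against 8.53% and 8.43% of nearer intergenic peaks, 6.55% and 6.42% of other peaks and 4.43% and 4.72% of windows beside. The TCF1 and LEF1 consensus (CTTTGAA) was held by 6.96% and 6.35%, against 5.42% and 5.14% of nearer intergenic peaks, 4.01% and 3.73% of other peaks and 5.14% and 4.66% beside. Each of these consensus sequences was more frequent in far peaks found in both libraries than in each of these sets. Far peaks not found in the other library held ETS, RUNX and TCF1 and LEF1 less often. The shares were 12.9%, 8.71% and 6.51% in replicate 1, and 4.97%, 4.97% and 2.57% in replicate 2. A GATA family consensus (AGATAA) was held by 8.64% and 7.98%, against 7.44% and 6.88% of nearer intergenic peaks and 5.59% and 5.13% of other peaks, and by more windows beside the far peaks, 13.1% and 12.4%. AP-1 (TGANTCA) was held by 7.06% and 7.34%, against 6.74% and 6.66% of nearer intergenic peaks, 5.06% and 5.00% of other peaks and 6.35% and 6.01% beside.

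The E-boxes CAGCTG and CAGGTG, letters read by E proteins in lymphocytes, were held by 21.8% and 28.9% of these far peaks in replicate 1 and by 23.0% and 30.1% in replicate 2. The shares in nearer intergenic peaks were 20.6% and 28.1% in replicate 1 and 21.1% and 28.8% in replicate 2. The shares in other peaks were 17.5% and 24.4% in replicate 1 and 18.3% and 25.3% in replicate 2, and in windows beside 7.89% and 12.2% in replicate 1 and 7.37% and 12.6% in replicate 2. The KLF and SP consensus (GGGCGG), common in promoters rich in CpG, was held by 9.25% and 10.1% of far peaks, against 12.7% and 13.04% of nearer intergenic peaks, 26.1% and 27.2% of other peaks and 1.81% and 2.19% of windows beside. Ikaros (TGGGAA) was held by 15.2% and 15.5%, against 17.0% and 17.1% of nearer intergenic peaks, 15.9% and 15.8% of other peaks and 18.001% and 17.4% of windows beside. MYB (AACNGTT) was held by 3.19% and 2.91%, against 3.19% and 3.04% of nearer intergenic peaks, 2.77% and 2.63% of other peaks and 3.63% and 3.80% of windows beside. For both of these the far peaks found in both libraries lay within 1 percentage point of the other peaks and below the windows beside all far peaks. GC content differed between these sets of windows, and its part in these shares was not tested.

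The core of the motif of CTCF, the insulator protein that anchors chromatin loops, was held by 8.96% and 8.80% of the far peaks found in both libraries, against 12.3% and 12.1% of intergenic peaks 10 to 100 kb from a start found in both, 7.60% and 7.49% of all other peaks found in both and 0.0588% and 0.0642% of windows beside. The share in far peaks thus lay above that of all other peaks and below that of the nearer intergenic ones. The core can overlap the E-box CAGGTG. Among far peaks found in a single library the libraries differed: 4.02% of those of replicate 1 alone held it, against 0.266% of those of replicate 2 alone. In far peaks found in both, 229 of 251 matches (91.2%) in replicate 1 and 145 of 249 (58.2%) in replicate 2 lay wholly inside a footprint, where footprints covered 18.9% and 13.2% of the bases. For KLF and SP the shares were 38.6% and 32.4%, and for ETS 7.87% and 5.93%. Of the 11 consensus sequences, only CTCF and KLF and SP lay in footprints at more than 2 times the share of bases covered in both libraries. A match had to be covered whole, whereas the share covered counts single bases. A share below that of bases, as for ETS, therefore does not show that a consensus lay outside footprints more often than other sequence.

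**Figure D5:**
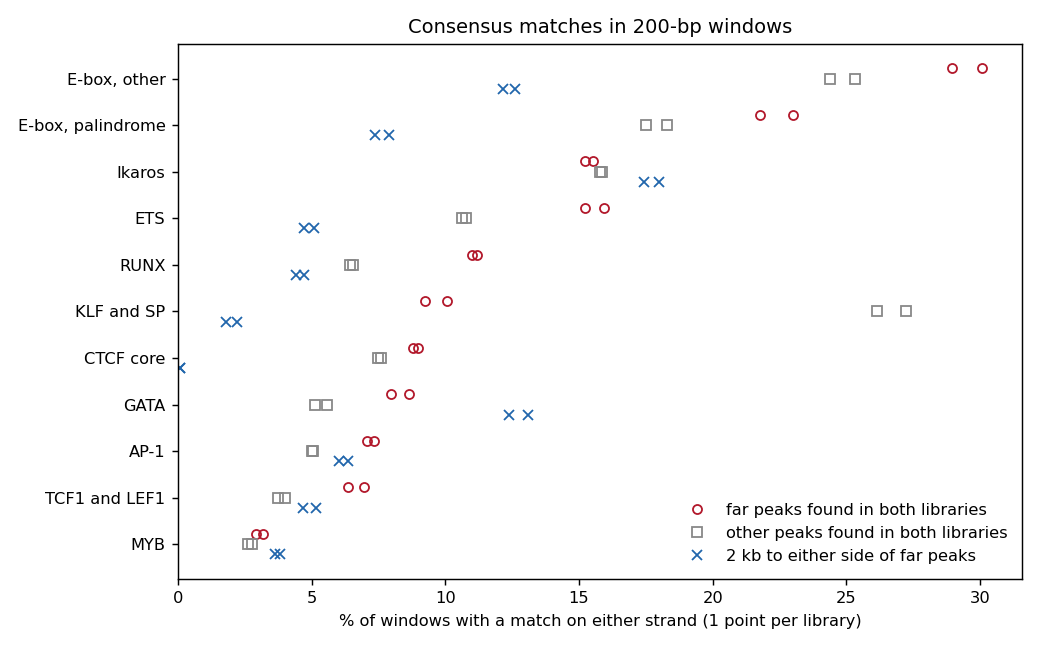
Percent of 200-bp windows with each consensus on either strand, 1 point per library, for far peaks found in both libraries (red circles), other peaks found in both libraries (grey squares) and windows 2 kb to either side of far peaks (blue crosses). The E-box labelled palindrome reads the same on both strands, and red circles lie to the right of the grey squares for each consensus except Ikaros and KLF and SP.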

How the data were processed

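Peaks, footprints and FDR stretches were made for each library by itself on mm10, per the README texts deposited with the samples. Which aligner and callers were used, with which thresholds and read numbers, is not given in the sources used here, so the depth is unknown and no counting interval is given. Heights are the authors' signal values, 1 for each peak. The deposited FDR stretches hold q-values (FDR values) below 0.05, and every footprint has the same value of 0.01 in the authors' files, taken here for the FDR limit. Of each sample's 2 peak files the one with more rows was used.

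Distances ran from a peak's midpoint to the nearest start of any transcript of a protein-coding gene of GENCODE M21. Overlap was counted from 1 bp. Far peaks of both libraries were joined where they overlapped, and heights of a joined region are those of its highest peak in each library. A peak was called multicopy where fewer than 50% of its 32-base words occurred once in the 21 chromosomes of GRCm38.p6. RefSeq mRNA starts came from the same assembly. The steps were checked against direct counting on simulated intervals and sampled peaks. Python 3.11.15, numpy 2.4.6, pandas 2.3.3, numba 0.67.0 and pysam 0.24.0 were used.

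Members and lists were chosen with earlier results of these data known. The genes named were the 20 nearest to the most far regions found in both libraries, the T-lineage regulators with such a region, up to 4 members of each other list, the genes at the highest and farthest regions and the flanks of the largest clusters. Named after their values were seen were the flanks of stretches, the RefSeq genes and the leading genes per Mb. P-values were not computed.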

Additional observations from a re-analysis of the deposited data

How the results depend on the processing

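No paired analysis was possible because the libraries form 1 group. The share of autosomal peaks called far, 7.23% on average, was 12.4% with a limit of 50 kb, 3.67% with 200 kb, 0.971% with 500 kb and 0.839% when genes of every type were counted. The median height of far peaks over the library's median, 0.561, was 0.646 at 50 kb, 0.477 at 200 kb, 0.285 at 500 kb, 0.672 in the stricter peak file and 0.673 with equal numbers of peaks, and it lay below that of other peaks in each of these. The share with a footprint, 67.9%, was 86.1% in the stricter file, where far peaks had 82.9% and 89.4% against 83.5% and 88.3% for other peaks. With equal numbers of peaks it was 84.8%, where far peaks had 94.0% and 75.6% against 91.5% and 84.6% for other peaks. The order of far and other peaks thus differed between the libraries in both of these settings. The share near or inside a non-coding gene, 27.4%, was 31.4% in the stricter file and 31.7% with equal numbers. The number of clusters, 140, was 263 with at least 3 regions, 62 with at least 6, and from 207 to 593 in single libraries. Only 3 of the 20 genes stayed among the first 20 per Mb of genes with at least 0.05 Mb of far sequence. The share found in the other library, 48.2% on average (25.02% and 71.4%), was 30.9% at 500 kb (14.4% and 47.4%), a move smaller than its spread between libraries, which have unequal numbers of peaks. The remaining settings moved values by less than the spread between libraries, or counts by less than 1.5 times. Those chosen after seeing the data left out antigen receptor loci (125 clusters), windows of many low peaks (138) or far peaks within 100 kb of a RefSeq mRNA start (131). They also applied the stricter file, equal numbers of peaks and single libraries to the sequence and annotation of far peaks. With 2 libraries of unequal peak numbers and unknown depth, the absence of a far peak in a library is not shown to be absence of open chromatin.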

Other observations

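In replicate 2, 80 windows of 100 kb each held at least 8 peaks of the library's lowest 10% by height, with up to 54 in a window, against 8 such windows with up to 15 in replicate 1. The 80 windows of replicate 2 held 176 far peaks of replicate 2 (4.46%) and 17.6% of these were found in the other library. The 8 windows of replicate 1 held 0 far peaks of replicate 1. This was chosen after the values were seen, and its relation to any step of the processing was not tested.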
